A study of Mus musculus with 12 samples.

Results

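The nuclear-encoded subunits of oxidative phosphorylation were examined in whole kidney of 3-week-old mice. Members were all genes whose single platform symbol matched the naming pattern of the subunits of complexes I to V, with assembly factors left out and the probe set of highest mean kept for each gene. The pattern found 81 genes, on 105 probe sets, among 19938 genes with a single symbol. They comprised 33 genes of complex I, 4 of complex II, 8 of complex III, 17 of complex IV, 17 of complex V and 2 related proteins that share the naming, Ndufa4l2 and Cox7a2l. Complex I was divided into 15 genes of the peripheral arm, which takes electrons from NADH, and 18 of the membrane arm, which pumps protons. Complex IV was divided into 10 genes of the general enzyme and 7 tissue-restricted isoforms, and complex V into 5 genes of the catalytic F1 part and 12 of the stalk and the membrane part Fo.

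The study measured total RNA on 12 Affymetrix arrays in 4 groups of 3, with a pool of 3 mice on each array. Pparg null mice, PpargΔ/Δ in the labels, lack the nuclear receptor PPARγ and were compared with controls on the same mixed C57BL6/SV129 strain background. AZIP mice, known as a line in which a transgene driven by a fat-cell promoter blocks fat formation, were compared with FVB controls. All groups were 3 weeks old and received no stated treatment, and the labels give neither the sex of the mice nor how the Pparg deletion was made. The mutant comparisons share no array, whereas the comparison of the control groups reuses the controls of both. Values are log2 RMA values, so a difference of 1 is a doubling, and errors are standard errors from the limma fit over the 12 arrays with n = 3 arrays per group. Nothing in the labels says more about how the pools were formed, so p-values measure the spread between pools of 3 mice, which is smaller than the spread between single mice.

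In oxidative phosphorylation, complexes I and II pass electrons from NADH and succinate to ubiquinone, complex III passes them to cytochrome c and complex IV to oxygen. The proton gradient built along the way drives ATP synthesis by complex V. Most subunits are encoded in the nucleus and imported, a few are encoded in mitochondrial DNA, and the kidney's proximal tubule, which reabsorbs most of the filtered solute, is known for its dense mitochondria. In whole-kidney RNA, fewer cells of a type and less RNA per cell cannot be told apart.

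The promoters of the subunit genes are shown first, because some of these genes share letters there that the naming rule did not use. A RefSeq table on GRCm38.p6 held 71 promoters for 66 of the 81 members, each running from 250 bases before to 50 bases after the annotated start, and 15 members had no entry. The sequences are those of the reference strain and not of the mice studied. Each motif was searched on both strands in all 32851 promoters of the table, and matches of different motifs in the member promoters overlapped 0 times. The palindromic NRF1 motif lay in 17 member promoters (23.9%) and in 4.6% of all promoters. The ETS motif CCGGAAG, the core bound by GABP, lay in 17 (23.9%) against 8.86%, and the YY1 motif in 4 (5.63%) against 0.633%. The ERR motif TCAAGGTCA was found in the promoters of Atp5g3 and Sdhd (2.82% against 0.423%), and the PPAR-RXR motif, AGGTCA repeated after 1 base, in 0 member promoters and 0.0396% of all. These are matches of letters only, and no match says only that these letters are not in this window.

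Capitals mark motif matches (NRF1, ETS or YY1) on either strand in the lines that follow, all on the minus strand of GRCm38.p6 and printed 5′ to 3′. Sdha (chr13:74350191-74350490) was chosen for its 3 NRF1 matches and Cox6a1 (chr5:115348909-115349208) for 2 NRF1 matches and 1 ETS match. Ndufs5 (chr4:123718137-123718436), with 1 NRF1 match, is the member that differed most between the control strains, and Ndufs4 (chr13:114388045-114388344) carries a YY1 match just before the end of the window. Cox6b2 (chr7:4753045-4753344) and Cox8b (chr7:140900397-140900696) are isoforms with the largest mutant differences, and their windows held no match to any of the 5 motifs.
Sdha: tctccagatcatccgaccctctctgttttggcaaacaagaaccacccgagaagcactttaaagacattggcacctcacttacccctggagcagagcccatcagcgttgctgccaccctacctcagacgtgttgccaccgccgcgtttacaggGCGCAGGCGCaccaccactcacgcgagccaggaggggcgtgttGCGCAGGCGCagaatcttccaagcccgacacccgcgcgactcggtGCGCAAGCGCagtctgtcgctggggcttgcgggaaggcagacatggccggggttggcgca
Cox6a1: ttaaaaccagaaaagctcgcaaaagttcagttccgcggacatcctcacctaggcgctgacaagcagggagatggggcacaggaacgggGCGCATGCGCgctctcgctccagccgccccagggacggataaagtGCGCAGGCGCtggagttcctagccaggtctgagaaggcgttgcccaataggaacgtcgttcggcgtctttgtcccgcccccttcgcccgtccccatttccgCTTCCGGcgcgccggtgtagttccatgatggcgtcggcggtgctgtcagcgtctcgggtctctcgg
Ndufs5: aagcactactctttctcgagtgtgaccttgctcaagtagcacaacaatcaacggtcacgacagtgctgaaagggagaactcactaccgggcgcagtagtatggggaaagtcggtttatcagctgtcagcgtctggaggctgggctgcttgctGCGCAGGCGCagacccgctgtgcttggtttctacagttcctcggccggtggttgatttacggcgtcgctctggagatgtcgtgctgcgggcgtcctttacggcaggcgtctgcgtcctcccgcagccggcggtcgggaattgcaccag
Ndufs4: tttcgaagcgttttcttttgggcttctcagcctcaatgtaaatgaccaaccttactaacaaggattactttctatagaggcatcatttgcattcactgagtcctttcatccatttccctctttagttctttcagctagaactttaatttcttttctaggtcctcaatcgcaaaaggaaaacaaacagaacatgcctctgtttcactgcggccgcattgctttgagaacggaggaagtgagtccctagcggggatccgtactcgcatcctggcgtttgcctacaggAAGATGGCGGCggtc
Cox6b2: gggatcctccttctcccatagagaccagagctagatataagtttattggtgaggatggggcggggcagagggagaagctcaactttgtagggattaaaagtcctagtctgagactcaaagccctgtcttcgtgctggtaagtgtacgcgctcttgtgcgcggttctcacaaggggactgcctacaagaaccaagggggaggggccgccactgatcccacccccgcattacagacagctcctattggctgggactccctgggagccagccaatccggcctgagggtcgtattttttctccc
Cox8b: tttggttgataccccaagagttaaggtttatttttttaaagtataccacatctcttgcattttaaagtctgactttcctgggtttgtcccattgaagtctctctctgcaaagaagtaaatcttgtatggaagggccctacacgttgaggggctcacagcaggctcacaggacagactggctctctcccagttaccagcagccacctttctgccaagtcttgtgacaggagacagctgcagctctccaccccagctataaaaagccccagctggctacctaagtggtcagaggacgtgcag

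Pparg itself read 8.0, 8.19 and 8.01 on the Pparg null arrays against 7.90, 7.97 and 8.02 in mixed controls (limma adjusted p = 0.339), and since the labels do not say which exons are deleted, this value says nothing about the genotype. The median of an array was 7.17 to 7.21, and the mean correlation within a group 0.997 to 0.998. As a check of the tissue, the means of 15 proximal tubule markers lay between 12.1 and 12.5 on all arrays. The means of 20 brown fat and muscle markers lay between 6.63 and 6.82, and those of 10 collecting duct markers between 9.59 and 10.1. The members varied little between arrays of a group: the median SD of a member was 0.0458 in Pparg null, 0.0273 in mixed control, 0.0545 in AZIP and 0.0383 in FVB control arrays, against 0.0665 to 0.0806 for all genes. Within its own group, the third FVB control array was the highest for 47 members and the first AZIP array the lowest for 43.

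In Pparg null kidneys most subunit transcripts lay close to the level of the mixed controls. The largest departures were the tissue-restricted complex IV isoforms Cox8b and Cox6b2 and Ndufa2 of the complex I peripheral arm. There 0 of 81 members passed the threshold of an adjusted p under 0.05 in limma, where 5.29% of all genes did, 2.67% higher and 2.62% lower. At an unadjusted p under 0.05 the members numbered 6 (7.41%), against 20.4% of all genes. The median difference was -0.001 over the members and -0.009 over all genes, with 40 members above 0 and 41 below. The median size of a difference, taken without sign, was 0.0407 for the members and 0.0752 for all genes. Absence of a call does not show equality, so intervals are given too: the 95% interval lay within 1.2-fold either way for 74 of 81 members, where 60.3% of all genes did so. Within 1.1-fold lay 34 members, against 8.26% of all genes. The members also had smaller standard errors, with a median of 0.0486 against 0.0698, and this narrows their intervals. They were bright as well: 76 of 81 lay at or above 7.74, percentile 50 of the mean expression of all genes. The values over all genes, here and in the comparisons below, include the dim genes. The part of brightness in these contrasts with all genes was not tested. The 3 arrays of each group did not overlap for 17 members (21%), against 26.1% of all genes.

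By complex, the medians in Pparg null minus mixed control were -0.01 for the peripheral arm of complex I, 0.00 for its membrane arm, -0.02 for complex II, -0.01 for complex III, -0.01 for the general subunits of complex IV, 0.01 for F1 and 0.05 for the stalk and Fo of complex V. In the peripheral arm of complex I, 3 of 15 genes (20%) had an unadjusted p under 0.05, against 20.4% of all genes. Groups did not overlap for 5 of the 15 (33.3%), against 26.1% of all genes. In the stalk and Fo, 8 of 12 genes lay above 0. Groups did not overlap for 5 of 12, against 26.1% of all genes, with Atp5g2, Atp5g3 and Atp5mpl above and Atp5j and Atp5j2 below their controls; Atp5g2, Atp5j and Atp5j2 are named here after their values were seen. Catalytic subunits illustrate the level values. Atp5b, the β subunit on which ATP is made, read 13.16, 13.20 and 13.20 in Pparg null and 13.22, 13.19 and 13.20 in mixed controls. Sdha, the flavoprotein of complex II, read 12.25, 12.30 and 12.31 against 12.33, 12.29 and 12.35. The groups overlapped for both genes, and the differences were -0.02 ± 0.04 and -0.04 ± 0.04. Ndufv1, which holds the NADH-binding site of complex I, differed by 0.02 ± 0.04, the Rieske protein gene Uqcrfs1 by -0.06 ± 0.04, the complex III core gene Uqcrc1 by 0.04 ± 0.04 and Cox4i1 of complex IV by 0.03 ± 0.04.

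The members with the smallest p in the Pparg null comparison, complex by complex, did not pass the threshold. Ndufa2, an accessory subunit of the peripheral arm, differed by -0.22 ± 0.07 (limma adjusted p = 0.115). Atp5e, the ε subunit of the central stalk listed with F1, read 9.98, 9.92 and 9.79 against 10.03, 10.02 and 10.03, a difference of -0.13 ± 0.05 (limma adjusted p = 0.206). All 3 Pparg null arrays of Atp5e lay below all 3 controls. Ndufb10 of the membrane arm differed by 0.09 ± 0.05, Sdhd by 0.11 ± 0.06 and Uqcr11 by -0.09 ± 0.06. Cox6a1 differed by -0.07 ± 0.05 and the small Fo gene Atp5mpl by 0.12 ± 0.06. The limma adjusted p of these genes ran from 0.250 to 0.451. The other probe set of Uqcr11 differed by -0.02 ± 0.08. Ndufs4, an accessory subunit whose loss is known to destabilise complex I, read 11.52, 11.64 and 11.59 against 11.76, 11.71 and 11.67 (-0.13 ± 0.05, limma adjusted p = 0.136). Its groups did not overlap, and this gene was chosen after its values were seen.

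**Figure D1:**
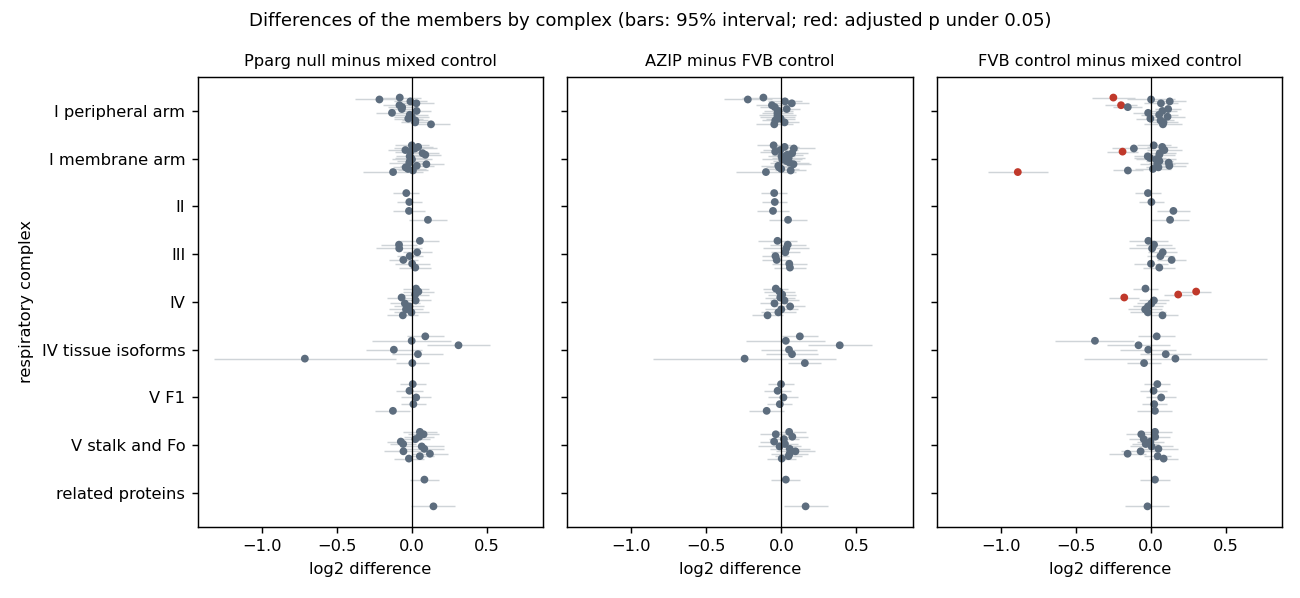
Log2 difference of each of the 81 members (horizontal axis) by respiratory complex (vertical axis) in 3 comparisons, with 95% intervals from limma as grey bars and red points for adjusted p under 0.05. The mutant panels have 0 red points and the control panel has 7, with Ndufs5 at -0.89 farthest out.

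In AZIP kidneys most subunit transcripts also lay close to their controls, again apart from some isoforms and Ndufa2. Of the 81 members 0 passed the threshold in AZIP minus FVB control, where 2.43% of all genes did, 1.3% higher and 1.13% lower. There were 5 members (6.17%) with an unadjusted p under 0.05, against 16.4% of all genes. The median difference was 0.003 for members and for all genes alike, and the median size was 0.0405 against 0.0676. The 95% interval lay within 1.2-fold for 73 members, against 63.1% of all genes, and the groups did not overlap for 12 (14.8%), against 22.5%. Medians by complex ran from -0.05 in complex II to 0.04 in the stalk and Fo of complex V, leaving aside the isoforms and related proteins. Atp5b read 13.18, 13.20 and 13.21 in AZIP against 13.21, 13.18 and 13.27 in FVB controls, and the groups overlapped. Sdha read 12.25, 12.26 and 12.26 against 12.30, 12.29 and 12.32. All 3 AZIP arrays of Sdha lay below the controls, by a difference of -0.05 ± 0.04 that did not pass the threshold (limma adjusted p = 0.626). Sdhb, the iron-sulfur subunit, read 11.82 on every AZIP array against 11.85, 11.88 and 11.85, with a difference of -0.04 ± 0.04 (limma adjusted p = 0.648).

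In the other complexes of the AZIP comparison the smallest p belonged to Ndufa2 at -0.22 ± 0.07 (limma adjusted p = 0.139), Ndufb7 at 0.08 ± 0.05, Uqcrq at 0.06 ± 0.05, Ndufa4 at -0.09 ± 0.05, Atp5e at -0.10 ± 0.05 and Atp5g3 at 0.07 ± 0.05. Ndufa4, named for complex I and now placed in complex IV, read 11.67, 11.73 and 11.63 against 11.75, 11.74 and 11.81, without overlap. Ndufv1 differed by -0.04 ± 0.04, Uqcrfs1 by -0.03 ± 0.04, Uqcrc1 by 0.03 ± 0.04 and Cox4i1 by -0.04 ± 0.04. None of these differences passed the threshold.

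**Figure D2:**
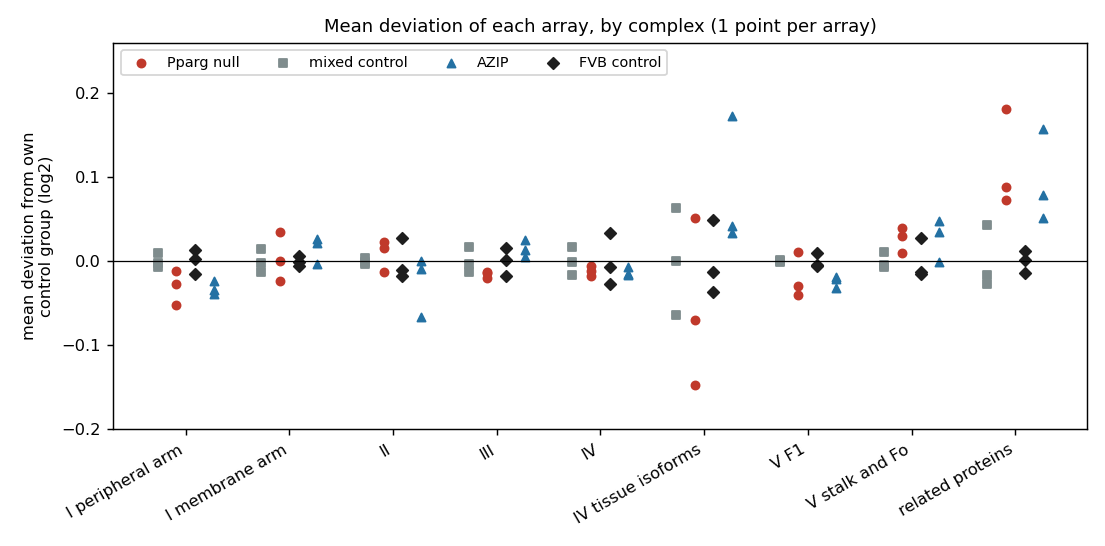
Mean deviation of each array from the mean of its own control group (vertical axis, log2) for the members of each complex (horizontal axis), with 1 point per array and 4 groups by colour and shape. Outside the 7 tissue-restricted isoforms and the 2 related proteins, the points lie between -0.07 and 0.05.

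The test of the difference between the mutant effects called 0 of 81 members in limma, where 0.0201% of all genes (4 genes) were called. At an unadjusted p under 0.05 it held 0 members, against 5.82% of all genes, and the interval of the difference lay within 1.2-fold for 67 members, against 37.4%. The smallest p in complex I belonged to Ndufv3, an accessory subunit of the peripheral arm, which differed by 0.13 ± 0.06 in Pparg null and by -0.05 ± 0.06 in AZIP (difference of effects 0.17 ± 0.08, limma adjusted p = 0.858). Across the 81 members the mutant differences had the same sign for 55 (67.9%), against 65.5% of all genes. Their correlation across members was r = 0.69 (Spearman 0.485, n = 81 genes) and 0.463 without the 3 members of largest Pparg null difference, against r = 0.600 over all genes. Genes are not independent replicates, and both comparisons share the normalization and the fit, so these values are a description.

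**Figure D3:**
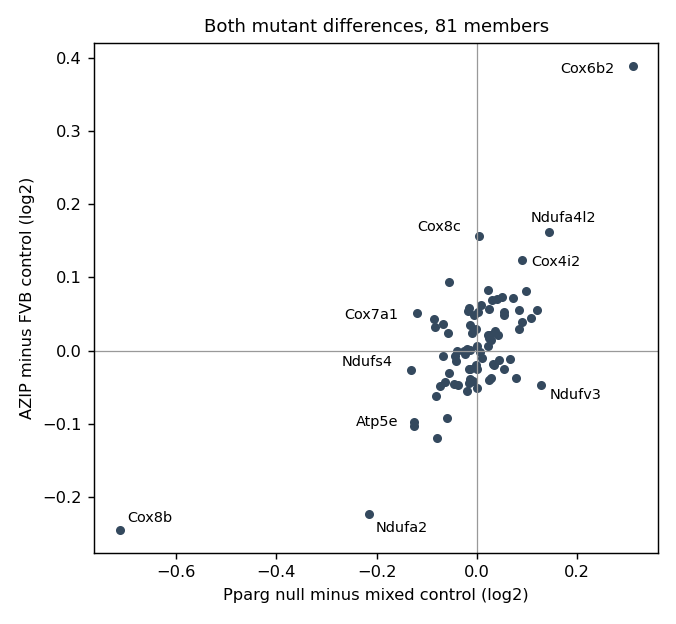
Log2 difference of each of the 81 members in Pparg null minus mixed control (horizontal axis) and in AZIP minus FVB control (vertical axis), 1 point per gene. Most members lie near the origin, with Cox6b2 at 0.31 and 0.39, Ndufa2 at -0.22 and -0.22, and Cox8b at -0.71 and -0.24.

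Averaged over both mutant lines, Cox6b2 rose and Ndufa2 fell. This contrast was added after the data were seen, and it called 2 of 81 members where 12.6% of all genes were called, 6.29% in each direction. Cox6b2, the isoform of subunit VIb known from testis, read 8.61, 8.57 and 8.44 in Pparg null against 8.32, 8.15 and 8.21 in mixed controls. In AZIP it read 8.30, 8.56 and 8.75 against 8.07, 8.21 and 8.16. Every mutant array lay above every control array of its own background. The differences were 0.31 ± 0.10 (limma adjusted p = 0.0891) and 0.39 ± 0.10 (limma adjusted p = 0.0602), and their average was 0.35 ± 0.07 (limma adjusted p = 0.00736). Without the first AZIP array, the lowest of its group, the AZIP difference was 0.51 and passed the threshold (limma adjusted p = 0.0119). With other single arrays left out its limma adjusted p was up to 0.208. That of the Pparg null difference was 0.111 to 0.241 with 1 array left out, and that of the average 0.00136 to 0.0215. Over the other settings the adjusted p of the AZIP difference ran from 0.0296 to 0.143, and that of the average from 0.00346 to 0.0185.

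Ndufa2 read 10.41, 10.27 and 10.14 in Pparg null against 10.51, 10.48 and 10.48 in mixed controls, and 10.35, 10.33 and 10.12 in AZIP against 10.52, 10.48 and 10.46 in FVB controls. Each mutant group lay wholly below its controls, and the mutant arrays were spread more widely than the controls. The average difference was -0.22 ± 0.05 (limma adjusted p = 0.0175, 0.00740 to 0.0367 over the other settings). Without the first Pparg null array, the highest of its group, the Pparg null difference alone was -0.28 (limma adjusted p = 0.0428). With other single arrays left out its limma adjusted p was up to 0.312, and that of the AZIP difference was 0.113 to 0.350. Atp5e had an average of -0.11 ± 0.04 (limma adjusted p = 0.0751). It passed the threshold without the first Pparg null array (limma adjusted p = 0.0400), and its limma adjusted p was up to 0.154 with other single arrays left out. In the average contrast 11 members (13.6%) had an unadjusted p under 0.05, against 26.3% of all genes.

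The tissue-restricted isoforms of complex IV varied most, and 0 of 7 passed the threshold in either mutant line. Cox8b, the isoform known from muscle and brown fat, read 6.28, 6.05 and 5.98 in Pparg null against 7.09, 6.32 and 7.04 in mixed controls. It read 6.78, 7.27 and 6.15 in AZIP against 7.16, 7.23 and 6.55 in FVB controls. The Pparg null arrays lay wholly below their controls, although the second mixed control, at 6.32, lay close to the highest of them, and the AZIP and FVB arrays overlapped. Cox8b was dim: its lowest Pparg null value, 5.98, lay beside 5.97, percentile 25 of the mean expression of all genes. Its mean over the arrays lay below percentile 50. The difference was -0.71 ± 0.28 in Pparg null (limma adjusted p = 0.173) and -0.24 ± 0.28 in AZIP (limma adjusted p = 0.742), and the AZIP value became 0.05 without the third AZIP array.

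Genes of brown fat were read beside Cox8b. Ucp1, the uncoupling protein of brown fat, read 5.37, 5.35 and 5.23 in Pparg null against 5.73, 5.65 and 6.10 in mixed controls, and 6.43, 7.39 and 5.44 in AZIP against 6.06, 5.73 and 5.63. Cidea, a droplet protein abundant in brown fat, read 5.21, 5.14 and 5.46 against 5.80, 5.31 and 5.73, and 6.05, 6.09 and 5.46 against 5.92, 5.98 and 5.39. On the AZIP arrays all 3 genes were highest in the second array and lowest in the third. The lowest array was also shared in both control groups, the second of the mixed controls and the third of the FVB controls. Their highest array was not shared there, and on the Pparg null arrays neither was. The mean of the 20 brown fat and muscle markers did not follow the AZIP order. It read 6.82, 6.74 and 6.80 on the AZIP arrays, lowest in the second. That list holds Cidea but not Ucp1 or Cox8b, and most of its genes are muscle genes. Its mean therefore cannot show whether brown fat genes as a set followed the order. Of the 20 brown fat and muscle markers, 0 rose and 1, Ppara, fell in Pparg null (-0.30 ± 0.08, limma adjusted p = 0.0448), and 0 were called in AZIP. Above 0 lay 8 of the 20 in Pparg null and 15 in AZIP, with medians of -0.06 and 0.03, and Cidea was the lowest of the 20 in Pparg null at -0.34 ± 0.20. All Pparg null values of Ucp1 and Cidea lay under 5.97, which is percentile 25 of the mean expression of all genes. So did all mixed control values of Cidea and the mixed control values 5.73 and 5.65 of Ucp1, so both genes were dim in the controls too. Ppara, a receptor that drives fatty acid oxidation, is also expressed in kidney. The part of these tissues in the Cox8b values was not tested.

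**Figure D4:**
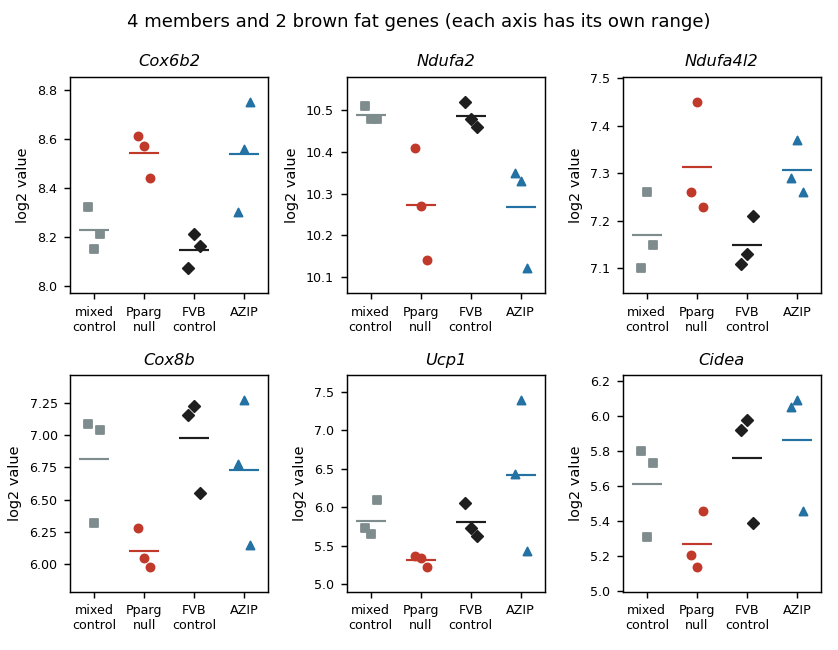
Log2 value on each array (vertical axis, each panel with its own range) of Cox6b2, Ndufa2, Ndufa4l2 and Cox8b and of the brown fat genes Ucp1 and Cidea in the 4 groups (horizontal axis), with the group mean as a line. Cox6b2 is higher and Ndufa2 lower in both mutants. In AZIP the arrays of Cox8b, Ucp1 and Cidea fall in the same order, and within each control group these genes share their lowest array. The mean of the 20 brown fat and muscle markers, mostly muscle genes, did not share the AZIP order.

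Of the other isoforms, Cox8c, known from testis, differed by 0.00 ± 0.05 in Pparg null and by 0.16 ± 0.05 in AZIP (limma adjusted p = 0.135). Cox4i2, an isoform known from lung and oxygen-sensing cells, differed by 0.09 ± 0.06 and 0.12 ± 0.06. The muscle isoform genes Cox6a2 and Cox7a1 differed by 0.00 ± 0.12 and -0.12 ± 0.09 in Pparg null and by 0.03 ± 0.12 and 0.05 ± 0.09 in AZIP. Cox7b2, with values of 3.95 to 4.32, was the only member below percentile 25 of mean expression. Ndufa4l2, a gene induced by hypoxia, read 7.26, 7.45 and 7.23 in Pparg null against 7.10, 7.26 and 7.15 in mixed controls, and 7.29, 7.37 and 7.26 in AZIP against 7.11, 7.13 and 7.21 in FVB controls. Its AZIP arrays lay above their controls and its Pparg null arrays overlapped theirs. The differences were 0.14 ± 0.07 (limma adjusted p = 0.254) and 0.16 ± 0.07 (limma adjusted p = 0.253). Cox7a2l, which links complexes III and IV into supercomplexes, differed by 0.08 ± 0.04 and 0.03 ± 0.04. Its other probe set differed by 0.09 ± 0.06 and -0.05 ± 0.06.

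Between the control kidneys of the strain backgrounds, 2 members were higher and 5 lower in FVB than in mixed C57BL6/SV129 mice. These 7 of 81 members stand beside 7.22% of all genes called, with 3.5% called higher and 3.72% called lower. Unadjusted p under 0.05 was found for 16 members (19.8%), against 19.7% of all genes. Ndufs5, an accessory subunit of the membrane arm, read 7.84, 7.90 and 7.83 in FVB controls against 8.73, 8.66 and 8.83 in mixed controls. The groups lay far apart, with a difference of -0.89 ± 0.09, or 1.85-fold lower in FVB (limma adjusted p = 0.000136). AZIP arrays, on the FVB background, read 7.94, 7.77 and 7.55, and Pparg null arrays 8.48, 8.66 and 8.71. Of the cell type markers in these controls, 13 of 15 proximal tubule markers lay above 0 in FVB (median 0.11, 1 called higher) and 9 of 10 collecting duct markers below 0 (median -0.20, 1 called lower). Their part in the strain differences was not tested. A second probe set, which the platform shares between Ndufs5 and its pseudogene Ndufs5-ps and which the rule left out, differed by -0.25 ± 0.07 between the controls (limma adjusted p = 0.0600 over all probe sets).

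Cox5a, a matrix-side subunit of complex IV, read 10.88, 10.78 and 10.94 in FVB controls against 10.55, 10.59 and 10.56 in mixed controls, so it was higher in FVB by 0.30 ± 0.05 (limma adjusted p = 0.00224). The AZIP arrays read 10.85, 10.85 and 10.86 and the Pparg null arrays 10.62, 10.62 and 10.59, so the backgrounds did not overlap on any array. Cox5b, its partner subunit, was higher in FVB controls by 0.18 ± 0.04 (limma adjusted p = 0.0255), and its other probe set differed from this by 0.07. Lower in FVB controls were Ndufa3 of the membrane arm (-0.19 ± 0.05, limma adjusted p = 0.0295), Ndufa7 (-0.20 ± 0.05, limma adjusted p = 0.0307) and Ndufa12 (-0.25 ± 0.07, limma adjusted p = 0.0422) of the peripheral arm, and Cox6a1, the general isoform of subunit VIa (-0.18 ± 0.05, limma adjusted p = 0.0379). Same-numbered control arrays deviated together, and with the replicate number as a block Cox6a1 had a limma adjusted p of 0.0505 and Ndufa12 of 0.0633.

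**Figure D5:**
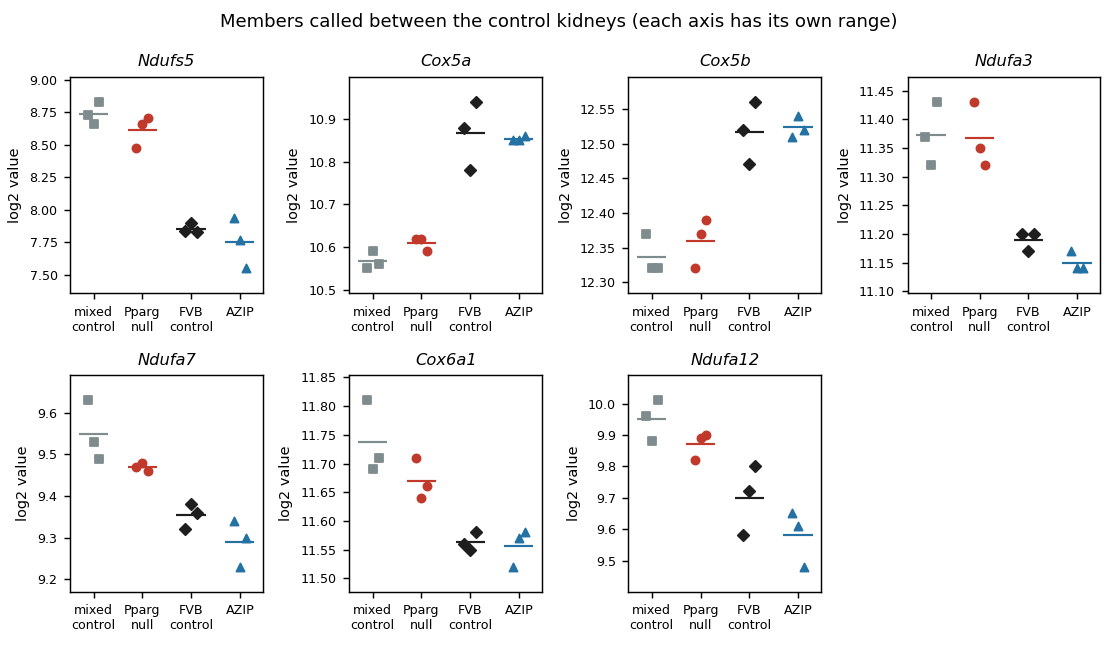
Log2 value on each array (vertical axis, each panel with its own range) of the 7 members called between the control groups, in mixed control, Pparg null, FVB control and AZIP arrays (horizontal axis), with the group mean as a line. In all 7 panels the 6 arrays on the FVB background do not overlap the 6 on the mixed background. The 7 members were chosen by the control arrays shown here, so part of this separation follows from the choice.

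Ndufs5 and Cox5a passed the threshold whichever control array was left out. Of the other 5, Cox6a1 lost it without any 1 of the 6 arrays, Ndufa12 without any but the third FVB control, Ndufa3 without any but the second mixed control, Ndufa7 without any but the third mixed control, and Cox5b without any but the second FVB or the first mixed control. Their limma adjusted p then reached 0.0961 for Cox5b and 0.154 for Ndufa12. On all 12 arrays, mutants included, 19 of 81 members (23.5%) had backgrounds that did not overlap, against 7.41% of all genes. These included the 7 members called, which were chosen by the control arrays among the 12. Among the 3 controls of each background, 37 members (45.7%) did not overlap, against 28.5% of all genes. Both counts stand beside the smaller array-to-array spread of the members, whose part in them was not tested. Sequence differences between the strains under the array probes were not tested either.

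The remaining members with separated backgrounds were Ndufb5, Ndufb6, Ndufb9, Ndufa5, Ndufs1, Uqcrfs1 and Atp5pb, higher on the FVB background, and Ndufc2, Ndufa9, Cox4i1, Cox6a2 and Atp5g2, lower. Ndufs1, the large iron-sulfur subunit of complex I, read 11.45 on all 3 FVB control arrays and 11.33, 11.35 and 11.32 in mixed controls, 0.12 ± 0.04 apart (limma adjusted p = 0.115). These 12 genes were named after their values were seen. Cox6a2 differed by -0.37 ± 0.12 (limma adjusted p = 0.0933) and Uqcrfs1 by 0.14 ± 0.04 (limma adjusted p = 0.0851). By complex, the medians of FVB minus mixed control ran from -0.02 in the tissue-restricted isoforms to 0.07 in complex II, and over all members the median was 0.022 against 0.017 over all genes.

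The rest of the respiratory machinery was read from fixed lists. Ndufab1, Cyc1 and Cycs, a complex I carrier protein, cytochrome c1 and cytochrome c that the naming rule does not match, lay between -0.05 and 0.06 in both mutant comparisons. The mitochondrially encoded ND3 and COX2 differed by -0.01 ± 0.07 and 0.01 ± 0.07 in Pparg null and by 0.02 ± 0.07 and 0.03 ± 0.07 in AZIP. Of 43 assembly factors, 0 rose and 2 fell in Pparg null, beside 5.29% of all genes called and 2.62% lower, and 0 were called in AZIP. Averaged over both lines 0 rose and 4 fell, beside 6.29% of all genes in each direction. The complex I assembly factors Ndufaf4 (-0.25 ± 0.05, limma adjusted p = 0.0236) and Tmem126b (-0.24 ± 0.05, limma adjusted p = 0.0269) were the 2 that fell in Pparg null. The median over the 43 was -0.06 in both mutant comparisons. Below 0 lay 27 of the 43 in Pparg null and 35 in AZIP, against 10600 and 9755 of all 19938 genes. Ndufaf4 lost the call without either group's array 2 or array 3 and Tmem126b without any array but the first Pparg null, with limma adjusted p of up to 0.0985. Between the controls 3 assembly factors were higher and 2 lower in FVB, among them Cox18 at 0.85 ± 0.12, Acad9 at 0.44 ± 0.05, Lyrm7 at -0.60 ± 0.10 and Ndufaf1 at -0.41 ± 0.06 (limma adjusted p of 0.000453 to 0.00425).

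Of 23 regulators of mitochondrial biogenesis, 2 rose and 0 fell in each mutant line, beside 2.67% of all genes called higher in Pparg null and 1.3% in AZIP. Ppargc1a, the coactivator PGC-1α that is known to raise respiratory gene expression, read 11.76, 11.82 and 11.79 in Pparg null against 11.46, 11.54 and 11.53, and 11.71, 11.65 and 11.76 in AZIP against 11.40, 11.45 and 11.49. Every mutant array lay above its controls, by 0.28 ± 0.05 (limma adjusted p = 0.00878) and 0.26 ± 0.05 (limma adjusted p = 0.0202). Esrrb, an estrogen-related receptor, rose by 0.34 ± 0.06 (limma adjusted p = 0.0113) and 0.33 ± 0.06 (limma adjusted p = 0.0202). In AZIP, Ppargc1a lost the call without the third AZIP or the first or second FVB control array (limma adjusted p up to 0.0959), and Esrrb without the third AZIP or any FVB control array (up to 0.0930). Esrrb lost it in Pparg null without the first mixed control (limma adjusted p = 0.0524).

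The other regulators lay mostly lower, with 17 of 23 below 0 in each mutant comparison and medians of -0.05 and -0.04. Ppargc1b, the related coactivator, read 8.12, 7.99 and 7.99 in Pparg null against 8.63, 8.46 and 8.29, and 8.63, 7.98 and 8.51 in AZIP against 8.88, 9.06 and 8.87. The mutant arrays lay below their controls without passing the threshold (-0.43 ± 0.14, limma adjusted p = 0.113, and -0.56 ± 0.14, limma adjusted p = 0.0652). Averaged over both lines 2 of the 23 rose and 8 fell, where 6.29% of all genes did in each direction. Among those that fell were Ppargc1b (-0.49 ± 0.10, limma adjusted p = 0.00889), Twnk, the mitochondrial DNA helicase (-0.21 ± 0.04, limma adjusted p = 0.00626), and Esrra (-0.17 ± 0.04, limma adjusted p = 0.0186). Esrra was named after its values were seen, and Nrf1 and Gabpa are named for the motifs above. Nrf1 differed by 0.01 ± 0.05 in Pparg null and 0.02 ± 0.05 in AZIP, Gabpa by -0.01 ± 0.04 and -0.03 ± 0.04, and Tfam, which packages mitochondrial DNA, by -0.02 ± 0.06 and -0.01 ± 0.06. Members with an NRF1 match had median differences of 0.03 and 0.02, and members with a promoter but no match -0.01 and 0.00. For the ETS motif the medians were 0.00 and 0.02 with a match and 0.00 and 0.00 without, and no test was made for either motif.

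Around the respiratory chain, 0 of 16 genes of the TCA cycle and 0 of 12 carriers and uncoupling proteins were called in either mutant line. Averaged over both lines 1 of the 16, Cs at 0.12, rose and 0 fell, beside 6.29% of all genes in each direction. Cs lost that call in 11 of 12 fits with 1 array left out. Of 14 genes known to respond to hypoxia, 2 rose in each, beside 2.67% and 1.3% of all genes called higher, while 9 of 14 lay above 0 in Pparg null and 8 in AZIP, with medians of 0.02 and 0.04. Pdk1, which restrains pyruvate oxidation, rose by 0.23 ± 0.06 (limma adjusted p = 0.0472) and 0.40 ± 0.06 (limma adjusted p = 0.0104), and the glucose transporter gene Slc2a1 by 0.36 ± 0.05 (limma adjusted p = 0.00355) and 0.25 ± 0.05 (limma adjusted p = 0.0343). Pdk1 in Pparg null and Slc2a1 in AZIP lost the call without any 1 of their 6 arrays (limma adjusted p up to 0.150 and 0.111), and Pdk1 in AZIP without the first FVB control (limma adjusted p = 0.0553). In the average of both lines 3 of the 14 rose, Pdk1, Slc2a1 and Kdm3a (0.23), and 0 fell. Between the controls Higd1a (0.33) and the TCA gene Dlst (0.17) were called higher in FVB and Pdk1 (-0.46) lower. Higd1a and Dlst lost that call without any 1 of the 6 control arrays. Proximal tubule markers moved beside these results. Of 15 markers 14 lay below 0 in each mutant comparison, with medians of -0.10 and -0.13 and 0 called, and their mean was 12.1 to 12.3 in Pparg null arrays against 12.4 to 12.5 in mixed controls. In AZIP it was 12.3 to 12.4 against 12.5 in FVB controls. Averaged over both lines 4 of the 15 fell and 0 rose, beside 6.29% of all genes in each direction. Of 10 collecting duct markers 4 rose in Pparg null, with the smallest p for Aqp2 at 0.48 ± 0.10 (limma adjusted p = 0.0220) and the highest value for Aqp4 at 0.61 ± 0.16 (limma adjusted p = 0.0480), and 0 were called in AZIP. Above 0 lay 9 of the 10 in Pparg null and 8 in AZIP, with medians of 0.22 and 0.05, where 2.67% and 1.3% of all genes were called higher. The part of cell composition in the subunit values was not tested.

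Different probe sets of a gene did not always give similar differences. In Pparg null the 6 probe sets of Atp5l lay between 0.08 and 0.09, whereas those of Ndufc1 gave -0.03 and 0.03. In AZIP those of Cox7a2l gave 0.03 and -0.05. For the 16 members with several probe sets, the largest gap between them was 0.0807 in the mutant comparisons and 0.169 between the controls, both for Cox7a2l. Beside these gaps, the median size of a member difference was 0.0407 in Pparg null and 0.0405 in AZIP. The 6 probe sets that the platform assigns to several symbols, for Cox7c, Ndufs5 and Ndufb4, were left out by the rule. After the filter at percentile 25 of mean expression 80 members remained, and at percentile 50 there were 76.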

How the data were processed

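Whole-kidney RNA of 4 groups was measured on 12 arrays. The authors deposited log2 values per probe set. Per the submitters' processing notes these are RMA values from Affymetrix Expression Console, with versions, settings and annotation build not given in the sources used here. RMA normalizes across arrays, so a shift common to most genes would be removed. Of 35556 probe sets, 21789 had 1 platform symbol, updated by Entrez number from a RefSeq gene table (GRCm38.p6). The probe set of highest mean was kept, which left 19938 genes.

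Group means were fitted to the 12 arrays with limma 3.58.1 in R 4.3.3 (lmFit and eBayes, 8 residual and 3.71 prior degrees of freedom). P-values were adjusted by Benjamini-Hochberg over the 19938 genes, with a threshold of 0.05. The scripts were tested on simulated data. The members and the lists were chosen with earlier results of these data known, so no test over a list was made. The naming rule took members past the threshold (at most 10 per comparison), the smallest p per complex, core subunits, isoforms, and up to 4 called genes per list; genes named outside it are marked or were read for a motif or tissue. The number of arrays limits the precision.

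Replicate numbers were checked as pairs. Same-numbered FVB and mixed control arrays deviated together (r = 0.247, 0.181 and 0.135), with no shared litter or day in the labels. Pparg null and mixed control did not on every pair (0.184, 0.179 and 0.00863), nor did AZIP and FVB control (-0.0364, -0.103 and -0.00987). Alternatives covered normalization, filters, probe sets, variance models, array weights, the block, single arrays left out and the threshold.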

Additional observations from a re-analysis of the deposited data

How the results depend on the processing

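The count of 0 members in the test of the difference between the mutant effects held under all alternatives run, and the members called in the other comparisons depended on the setting as follows. In Pparg null minus mixed control the count became 1 at an adjusted p under 0.10, with array weights and at percentile 50, and was 0 to 1 with 1 array left out. In AZIP minus FVB control it became 1 at an adjusted p under 0.10, at percentile 25 and 50 and with a variance trend, and was 0 to 1 with 1 array left out. Between the controls the 7 calls became 11 at an adjusted p under 0.10 and with array weights, 12 at percentile 50 and with a variance trend, 4 over all probe sets and 2 with only the groups compared, and were 2 to 3 with 1 array left out. The 2 calls of the average of the mutant effects became 4 at an adjusted p under 0.10, with array weights and at percentile 25, and were 2 to 3 with 1 array left out. Cox6b2 and Ndufa2 kept their calls in that average under all alternatives run.

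The median member difference became -0.0194 with equal array medians and -0.0171 with quantile normalization again in Pparg null, -0.02 with equal array medians in AZIP, -0.0143 with equal array medians in the average, and -0.0169 with quantile normalization again in the difference of effects. With 1 array left out it ran from -0.0147 to 0.0046 in that difference and from -0.0061 to 0.0092 in the average. With 1 array left out the sign turned for Cox6b2 in the difference of effects (-0.20 to 0.0293, the latter without AZIP replicate 3), for Cox8b in AZIP (-0.51 to 0.0477, the latter without AZIP replicate 3) and for Cox8b between the controls (-0.0858 without mixed control replicate 2, up to 0.38). With the replicate number as a block the members called were 0 in Pparg null, 0 in AZIP, 5 between the controls and 3 in the average. The number of all genes called moved more: from 1055 to between 607 and 1938 in Pparg null and from 485 to between 162 and 1035 in AZIP over the settings, and to as few as 330 and 62 with 1 array left out. Where not shown by the alternative's own construction, the cause was not tested. Dim isoforms such as Cox7b2 and Cox8c have little signal over background, which limits what their differences can show.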
